A study of Homo sapiens with 4 samples.

Results

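OTX1, ELAVL4, PCDH17, MAL, CMTM1 and CMTM2 lie at 5 loci of the human genome that carried more CpG methylation in B3GALT5-/- primed H9 cells than in wild-type primed H9 cells. The 6 genes were chosen on these measured methylation levels, so the difference between the KO primed and WT primed libraries is described here without a test. The members are the single cytosines with at least 5 reads in every one of the 4 libraries inside fixed spans around the genes (hg19), which gave 329 of 907719 such cytosines in the whole series. OTX1 contributed 65, ELAVL4 67, PCDH17 56, MAL 52 and the neighbouring CMTM1 and CMTM2 together 89. H9 is an established human embryonic stem cell line, and bisulfite sequencing after capture of targeted CpG regions was used to read the methylated share of each cytosine. The groups were KO naive (B3GALT5-/- cells in 2iLAF medium), WT naive (wild-type cells in 5iLAF medium), KO primed (B3GALT5-/- cells in basal medium) and WT primed (wild-type cells in basal medium). Each group was 1 library, so no difference below has a replicate check, and the labels do not say how many clones the B3GALT5-/- cells represent. In the naive state genotype and medium differ together and cannot be told apart.

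B3GALT5 encodes a galactosyltransferase of glycosphingolipid synthesis. Methyl groups on CpG cytosines are added and maintained by DNA methyltransferases, and CpG-rich starts of developmental genes usually stay unmethylated in pluripotent cells even where the genes are silent. Naive human pluripotent cells carry less methylation across the genome than primed cells. OTX1 is a homeodomain transcription factor of forebrain and sense organ development, ELAVL4 (HuD) is a neuronal RNA-binding protein, and PCDH17 is a non-clustered protocadherin of brain cell adhesion. MAL is a proteolipid of myelin and T lymphocytes. CMTM1 and CMTM2 belong to the chemokine-like MARVEL transmembrane family and are known mainly from testis, so a neural label suits OTX1, ELAVL4 and PCDH17 and does not describe the CMTM pair. No expression was measured.

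The libraries held 40697882 reads over listed cytosines in KO naive, 23916547 in WT naive, 28450230 in KO primed and 24570785 in WT primed. Median coverage was 13 reads per listed cytosine in KO naive, 8 in WT naive, 8 in KO primed and 7 in WT primed. Over all 907719 cytosines mean methylation was 58.9% in KO naive, 57.7% in WT naive, 81.2% in KO primed and 80.2% in WT primed, so the genotypes were close within each state. Every listed cytosine had at least 1 methylated read, and a cytosine absent from a library's list had either no read or no methylated read there. The members therefore leave out positions that were fully unmethylated in any library.

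The RefSeq promoter windows of ELAVL4 and CMTM1 are shown because one holds the difference between the primed libraries and the other a difference of opposite direction between the naive libraries. Both run 5′ to 3′ on the plus strand of GRCh38.p14, from 250 bases before to 50 bases after the start site, at chr1:50047805-50048104 for ELAVL4 and chr16:66566189-66566488 for CMTM1. Their place on the files' hg19 positions was found from the spacing of their CpGs. All 20 cytosines listed in the ELAVL4 window and all 40 in the CMTM1 window fell on CpGs of the sequence. Capitals mark 12 CpGs of ELAVL4 with a cytosine at least 25 points more methylated in KO primed than in WT primed. In CMTM1 they mark 15 CpGs with a cytosine at least 25 points less methylated in KO naive than in WT naive. A CpG is marked when the cytosine of either strand passes, even where the other does not. At 66600379 (hg19) in CMTM1, the plus strand had 63.9% in KO naive and 77.8% in WT naive. Only the minus strand passed there, with 1 of 14 reads against 3 of 5. Lowercase CpGs include those not compared. Only 13 ELAVL4 cytosines had 5 reads in both primed libraries, and 25 CMTM1 cytosines in both naive libraries.
ELAVL4: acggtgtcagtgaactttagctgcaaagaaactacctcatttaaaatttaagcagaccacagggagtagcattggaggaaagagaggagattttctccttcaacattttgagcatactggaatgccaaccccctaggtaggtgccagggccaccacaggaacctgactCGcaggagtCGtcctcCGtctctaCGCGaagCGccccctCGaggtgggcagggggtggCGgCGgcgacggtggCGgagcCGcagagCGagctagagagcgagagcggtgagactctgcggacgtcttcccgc
CMTM1: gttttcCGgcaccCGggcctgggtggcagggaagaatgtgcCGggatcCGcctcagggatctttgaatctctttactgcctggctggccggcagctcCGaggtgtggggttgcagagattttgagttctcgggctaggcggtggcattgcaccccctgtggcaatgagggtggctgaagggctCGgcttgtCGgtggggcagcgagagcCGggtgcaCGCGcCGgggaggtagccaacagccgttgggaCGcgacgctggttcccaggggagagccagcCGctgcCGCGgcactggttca

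The OTX1 locus (chr2:63270001-63292000, hg19) held the longest run of cytosines with more methylation in KO primed, spanning 5500 bases from 63281159 to 63286658. Methylation was read in 1 kb tiles, and a tile is called higher when it has at least 5 members, a mean difference of at least 25 percentage points, and at least 80% of its cytosines on that side. All 5 OTX1 tiles with 5 or more members met this rule. In the tile chr2:63281001-63282000, 16 cytosines averaged 88.9% ± 14.1 in KO primed and 28.1% ± 5.14 in WT primed (SD over cytosines), from 192 and 347 reads. In the tile beginning at 63283001, 7 cytosines averaged 97.1% ± 4.46 in KO primed and 13.9% ± 6.22 in WT primed. These 7 do not stand for the whole tile: its 22 cytosines with at least 5 reads in WT primed averaged 52.6% there and reached 100%, and only 10 of them had 5 reads in KO primed as well, at 92.1% in KO primed and 14.9% in WT primed. All 104 reads of the 5 cytosines in the tile beginning at 63284001 were methylated in KO primed (95% Wilson interval 96.4% to 100%), against 16 of 87 reads in WT primed (18.4%, 11.7% to 27.8%). The ranges of the primed libraries over the members did not overlap in any of these 3 tiles.

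The OTX1 profile was stepped rather than flat. The 19 cytosines of the tile beginning at 63285001 averaged 58.4% ± 13.9 in KO primed and 7.75% ± 5.59 in WT primed, the smallest difference of the 5 tiles, at 50.7 points. The neighbouring tile at 63286001 averaged 66.3% ± 7.36 in KO primed and 12.4% ± 7.19 in WT primed over 11 cytosines. The tile at 63282001 held only 3 members, at 57.1% to 100% in KO primed and 14.3% to 22.2% in WT primed. KO primed was thus near full methylation in the first 3 of the 5 tiles and intermediate in the last 2, while WT primed was low at the members of all 5. Before this run, from 63271001 to 63281000, KO primed was low where it was read. Its 21 cytosines with at least 5 reads averaged 9.84% and none exceeded 20.8%, and the 26 of WT primed averaged 18.1%. Only 2 cytosines were in both sets. In the tile next to the run, at 63280001, 0 cytosines had 5 reads in KO primed, and the 12 of WT primed averaged 28.2%. The high level in KO primed therefore began within the locus and did not cover all its measured cytosines. The RefSeq promoter of OTX1 could not be placed on the listed cytosines, so no distance from the OTX1 start site is given.

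At ELAVL4 (chr1:50508001-50675000, hg19), 1 tile of 6 with at least 5 members met the rule, and it covers the promoter printed above. In the tile chr1:50513001-50514000, 16 cytosines averaged 92.8% ± 14.7 in KO primed and 26.4% ± 29.8 in WT primed, and 14 of 16 were higher in KO primed. The wide spread in WT primed followed position. The cytosines at 50513426, 50513444 and 50513452 had 48.4%, 84.4% and 89.7% methylation in KO primed, and were also high in WT primed at 66.7%, 75.0% and 100%. At the members from 50513646 onward KO primed lay between 94.4% and 100%, and WT primed between 3.85% and 27.6%. At the first of these, 20 of 20 reads were methylated in KO primed and 8 of 29 in WT primed. The cytosine at 50513710, unlisted in WT primed and so not a member, had 6 of 13 reads methylated in KO primed (46.2%). With at least 20 reads required in every library, only 5 of the 16 cytosines remained and their mean difference was 14.3 points. Those at 50513426, 50513444, 50513452 and 50513479 differed by -18.3, 9.38, -10.3 and 18.4 points, and the one at 50513646 by 72.4 points. The members from 50513655 onward had 12 to 18 reads in KO primed and were left out. The 14.3 points therefore do not describe the stretch from 50513646 onward at higher coverage. Within the promoter window, the 13 cytosines read in both primed libraries averaged 97.1% ± 8.77 in KO primed and 14.0% ± 12.5 in WT primed.

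The next ELAVL4 tile, beginning at 50514001, lay just outside the rule. Its 9 cytosines averaged 86.7% ± 16.3 in KO primed and 52.8% ± 28.9 in WT primed, a difference of 33.9 points, but only 6 of 9 were higher in KO primed. The first 6, up to position 50514255, were at 80% to 100% in KO primed and 12.5% to 62.5% in WT primed, and the last 3 were lower in KO primed. Of the further RefSeq start sites of ELAVL4 downstream, 2 windows could be placed and read. At the start site window chr1:50105981-50106280 (GRCh38.p14), 9 cytosines averaged 83.7% ± 18.6 in KO primed and 87.2% ± 8.32 in WT primed. At chr1:50108670-50108969, 6 cytosines averaged 82.2% ± 16.7 in KO primed and 74.7% ± 11.1 in WT primed. Further along, in the tile at 50659001, 9 cytosines averaged 77.1% ± 19.1 in KO primed and 88.4% ± 15.8 in WT primed. These 3 downstream stretches were highly methylated in both primed libraries.

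**Figure D1:**
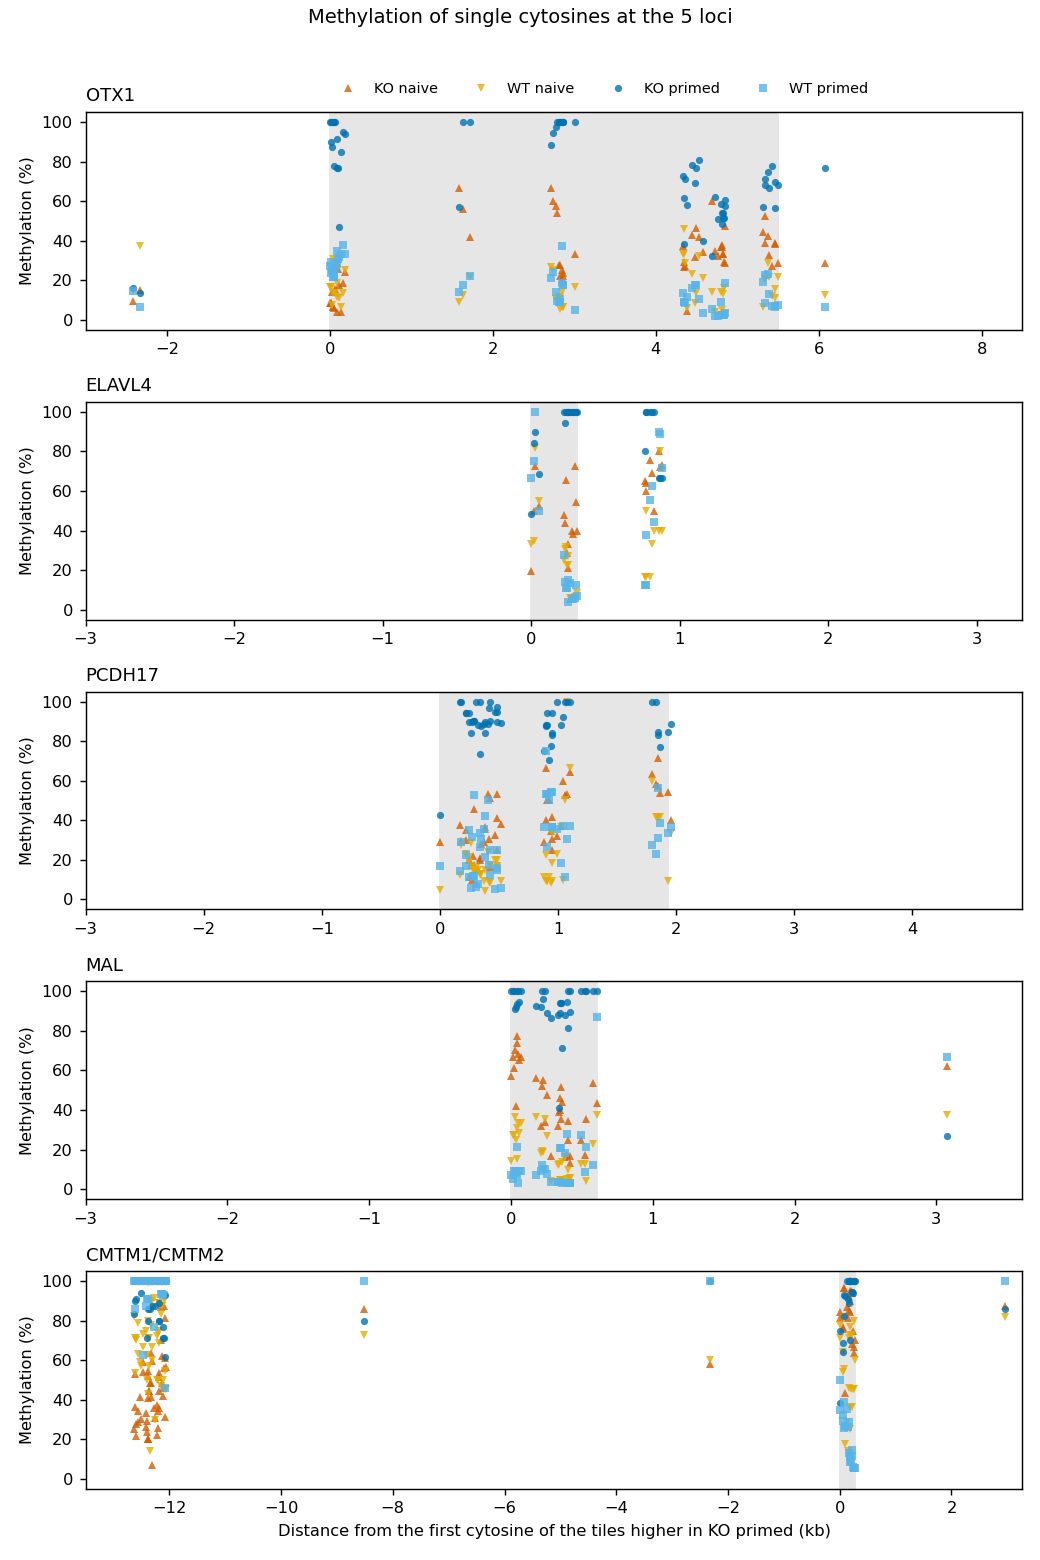
Methylation (%) of each member cytosine near the higher tiles, against the distance in kb from the first cytosine of those tiles, in the 4 libraries; the grey band runs from the first to the last cytosine of the tiles higher in KO primed. Within the bands most KO primed points lie above the WT primed points at all 5 loci, with KO primed intermediate in the last part of the OTX1 band and WT primed high at the left edge of the ELAVL4 band. At CMTM1/CMTM2 the cytosines about 12 kb before the band are high in both primed libraries.

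PCDH17 (chr13:58203001-58305000, hg19) had 2 tiles with at least 5 members, and both were higher in KO primed. In the tile chr13:58207001-58208000, 35 cytosines averaged 89.0% ± 10.7 in KO primed and 26.5% ± 17.1 in WT primed, from 736 and 605 reads, and all 35 were higher in KO primed. In the tile beginning at 58208001, 16 cytosines averaged 90.6% ± 8.65 in KO primed and 35.1% ± 12.4 in WT primed. The ranges overlapped in the first tile, whose lowest cytosine in KO primed had 42.9% and whose highest in WT primed had 75.0%, and were apart in the second (76.9% or more against 56.2% or less). Before this block, from 58203001 to 58207000, the 14 cytosines with at least 5 reads in KO primed averaged 13.9% and the 3 in WT primed 8.41%, with 0 cytosines in both sets. After it, at 58227893 to 58228006, the 4 members were at 91.7% to 100% in KO primed and 88.9% to 100% in WT primed. PCDH17 thus had low, differing and high stretches in that order along the chromosome. Its RefSeq promoter could not be placed either.

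MAL (chr2:95686001-95725000, hg19) held the tile with the largest difference between the primed libraries, over members, of all 51144 tiles of the series. The loci were chosen on this contrast, so the rank is only a description. In that tile, chr2:95691001-95692000, 9 cytosines averaged 96.9% ± 3.87 in KO primed and 8.91% ± 5.10 in WT primed. These 9 begin only at 95691939 and do not stand for the whole tile. A further 11 of its cytosines had at least 5 reads in WT primed, at a mean of 16.5%, and were unlisted in KO primed. Another 6 had at least 5 reads in KO primed, at a mean of 84.0%, and were unlisted in WT primed. The reads of the 9 members were methylated in 117 of 121 cases in KO primed (96.7%, 91.8% to 98.7%) and in 20 of 219 in WT primed (9.13%, 5.99% to 13.7%). The neighbouring tile at 95692001 had 91.6% ± 12.5 in KO primed and 13.2% ± 17.0 in WT primed over 26 cytosines. All 35 members of both tiles were higher in KO primed. The ranges were apart in the first tile, and in the second they overlapped through 1 cytosine each, at 41.2% in KO primed (95692277) and 87.0% in WT primed (95692545). These cytosines lie 486 to 1092 bases after the RefSeq start site of MAL, and the promoter window itself held no cytosine with 5 reads in both primed libraries. Its 8 listed cytosines were all unlisted in KO primed, and WT primed had 8.33% to 25% at those listed there. The tile at 95697001, further into the span, averaged 84.1% ± 12.2 in KO primed and 72% ± 10.95 in WT primed over 5 cytosines.

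CMTM1 and CMTM2 (chr16:66595001-66625000, hg19) differed from each other. In the tile chr16:66612001-66613000, whose members lie at -668 to -398 bases from the RefSeq start site of CMTM2, 22 cytosines averaged 88.5% ± 16.0 in KO primed and 20.1% ± 13.1 in WT primed. All 22 were higher in KO primed, with overlapping ranges because 1 cytosine was at 38.5% in KO primed and another at 50% in WT primed. Within the tile the difference between the primed libraries varied, with an SD of 25.5 points over cytosines, and a trend along the tile was not tested. At 66612711 KO primed had 38.5% and WT primed 35.0%, and at 66612968 KO primed had 100% (17 of 17 reads) and WT primed 5.56% (1 of 18 reads). The CMTM1 promoter showed no such difference between primed libraries: in its tile, chr16:66600001-66601000, 51 cytosines averaged 93.7% ± 10.03 in KO primed and 96.3% ± 9.87 in WT primed. Within the CMTM1 window printed above, 34 cytosines averaged 97.3% ± 6.72 in KO primed and 98.0% ± 6.94 in WT primed. The tile at 66624001 averaged 87.8% ± 15.7 in KO primed and 79.4% ± 27.7 in WT primed over 6 cytosines.

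Across the 5 loci, 11 of the 19 tiles with at least 5 members were higher in KO primed by the rule and 0 were lower. In the whole series 1.54% of tiles were higher and 0.8% lower, but the loci were chosen on this contrast and nothing is read from their count. The 182 cytosines in the 11 higher tiles averaged 86.2% ± 16.4 in KO primed and 20.4% ± 16.9 in WT primed, and 180 of them were higher in KO primed. The other 147 members averaged 85.7% ± 18.9 in KO primed and 82.8% ± 23.8 in WT primed. The members outside the higher tiles were methylated in both primed libraries at ELAVL4, PCDH17, MAL and CMTM1/CMTM2, where their means were 79.0% to 94.2% in KO primed and 71.0% to 94.4% in WT primed. At OTX1 they were not, with 66.3% in KO primed and 24.2% in WT primed over 7 cytosines, all of them higher in KO primed. Around the cut on coverage, the 37 members whose lowest coverage was exactly 5 reads averaged 85.3% in KO primed and 82.7% in WT primed. The 29 cytosines left out with a lowest coverage of 4 averaged 84.6% in KO primed and 59.7% in WT primed.

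**Figure D2:**
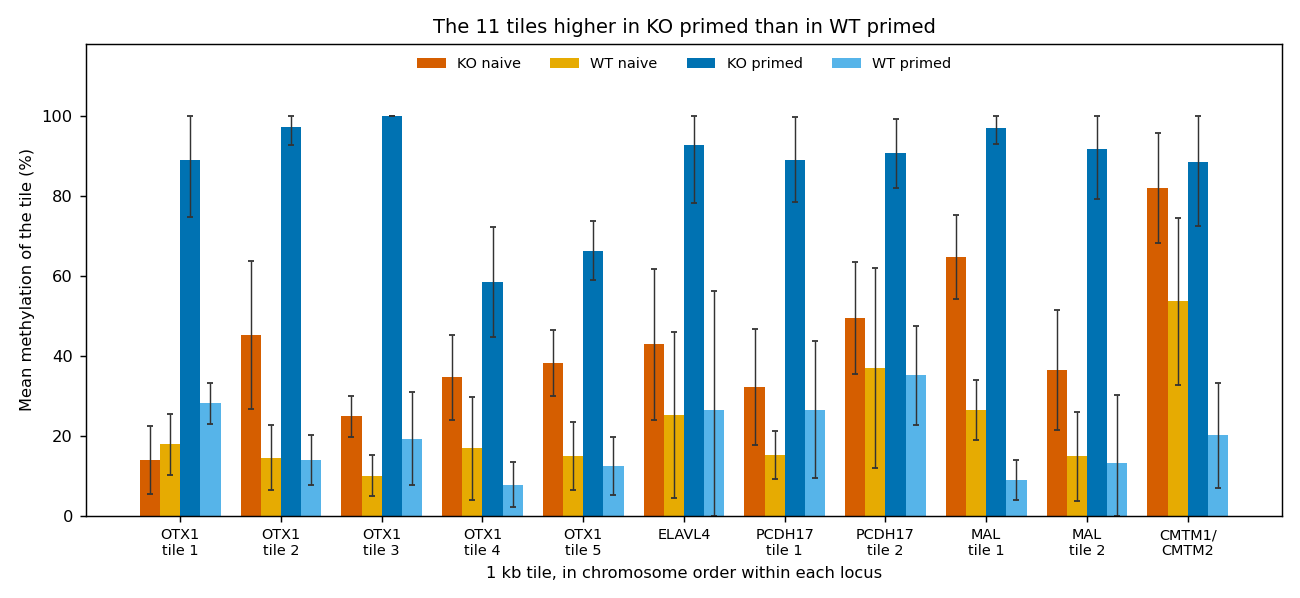
Mean methylation (%) of the 11 tiles higher in KO primed, in the 4 libraries, with bars for the SD over the cytosines of the tile, cut at 0 and 100%. KO primed is the highest library in every tile, and KO naive stands above WT naive in 10 of 11, the exception being the first OTX1 tile.

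Some cytosines of the 11 tiles were unlisted in 1 primed library. Taken library by library, 363 cytosines with at least 5 reads in KO primed averaged 81.2%, and 328 in WT primed averaged 24.8%. Among them, 86 cytosines had at least 5 reads in KO primed and were unlisted in WT primed, and they averaged 64.8% in KO primed. The reverse held for 20 cytosines, unlisted in KO primed with at least 5 reads in WT primed, where they averaged 33.5%. The last OTX1 tile, at 63286001, held 37 of the 86, with 45.6% in KO primed. At MAL the counts ran the other way, with 13 unlisted in KO primed and 11 unlisted in WT primed. Just past the CMTM2 tile, in chr16:66613001-66614000, 4 cytosines with at least 5 reads in both primed libraries had 100% in KO primed and 19.6% in WT primed, outside the members because they were not listed with 5 reads in both naive libraries. Over all 28 cytosines of that tile with at least 5 reads in WT primed, the WT primed mean was 57.0%, with levels from 12.5% to 100%, and most of them lacked 5 reads in KO primed.

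KO naive against WT naive shares no library with the contrast on which the loci were chosen. In the 182 cytosines of the 11 tiles, KO naive averaged 42.2% ± 22.5 and WT naive 23.3% ± 19.1, a difference of 18.8 points, and 150 were higher in KO naive. Median coverage there was 25 reads in KO naive and 17 in WT naive, and its part in the difference was not tested. Over all cytosines of the series KO naive minus WT naive was 1.14 points. The 11 tiles had a median difference of 17.8 points, and 10 of 11 were above 0. In the series the median was 0.831 points and 52.9% of tiles were above 0, and among all 790 tiles higher in KO primed the median was -0.555 points and 48.9% were above 0. These counts describe 2 libraries, and 5 of the 11 tiles lie at OTX1. The 790 tiles are not a matched comparison. Their median primed difference was 31.1 points and their WT primed median 51.4%, against 66.4 points and 19.3% in the 11 tiles.

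By the rule of size, 5 of the 19 tiles were higher in KO naive than in WT naive and 1 was lower, beside 3.33% higher and 2.21% lower among all tiles. The MAL tile at 95691001 had the largest difference, with 64.7% ± 10.5 in KO naive and 26.5% ± 7.44 in WT naive, and all 9 cytosines were higher in KO naive without overlap (42.1% or more against 36.4% or less). In the OTX1 tile at 63283001, KO naive averaged 45.2% ± 18.5 and WT naive 14.5% ± 8.06, with all 7 cytosines higher in KO naive. Its ranges overlapped slightly, from 22.2% upward in KO naive and up to 26.7% in WT naive. The CMTM2 tile at 66612001 averaged 82.0% ± 13.7 in KO naive and 53.6% ± 21.0 in WT naive, with 20 of 22 cytosines higher in KO naive and overlapping ranges. The other 2 were ELAVL4 tiles outside the primed rule. At 50514001 KO naive averaged 67.7% ± 9.08 and WT naive 37.0% ± 20.3, from 233 and 50 reads. At 50569001 KO naive averaged 56.4% ± 26.6 and WT naive 29.9% ± 6.70 over 5 cytosines, with overlapping ranges.

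The tile lower in KO naive was that of the CMTM1 promoter. Its 51 cytosines averaged 42.9% ± 17.6 in KO naive and 70.1% ± 18.9 in WT naive, from 1566 and 701 reads, and 45 of 51 were lower in KO naive. With at least 10 reads required in every library, 0 tiles were lower in KO naive and 3 were higher. The pooled reads were 44.4% methylated in KO naive (42.0% to 46.9%) and 70.0% in WT naive (66.6% to 73.3%). In the printed window, 25 cytosines averaged 36.6% ± 14.5 in KO naive and 69.8% ± 19.03 in WT naive. The CMTM2 promoter window had the same direction over fewer cytosines, with 70.5% ± 18.6 in KO naive and 93.5% ± 8.28 in WT naive over 7. CMTM1 and the stretch before CMTM2 stood on opposite sides in the naive libraries although 12356 bases or more separate the CMTM1 start site from that stretch. In the ELAVL4 window, 18 cytosines averaged 38.8% ± 17.7 in KO naive and 18.1% ± 13.6 in WT naive.

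**Figure D3:**
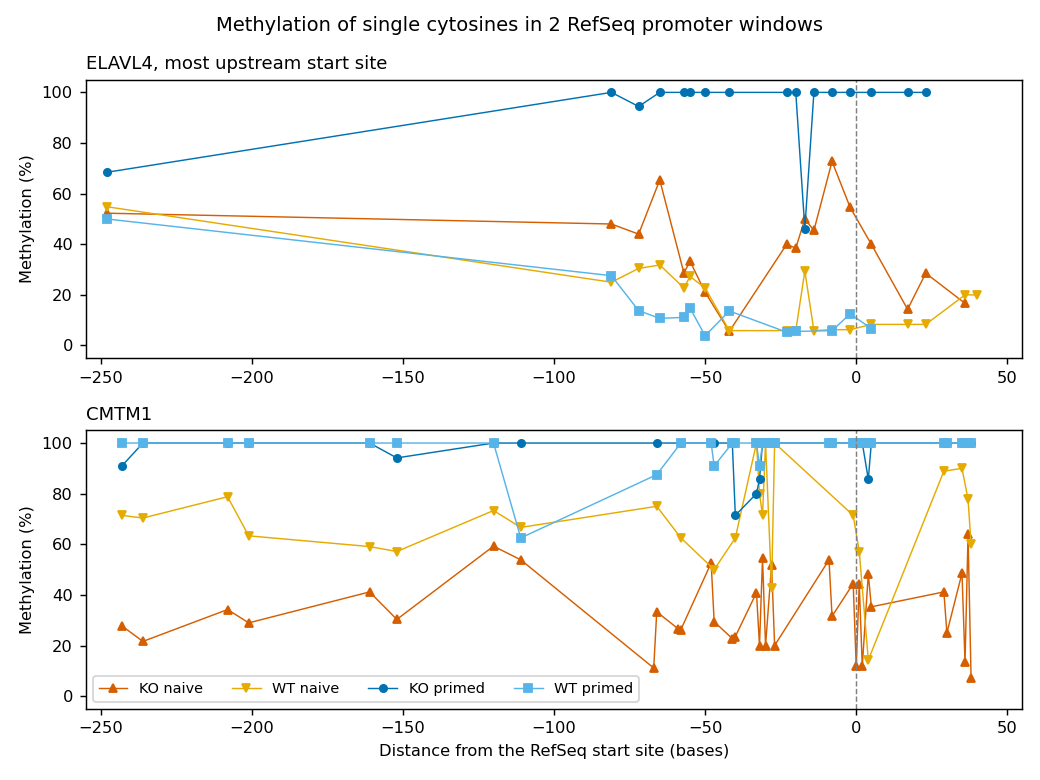
Methylation (%) of each cytosine with at least 5 reads in the RefSeq promoter windows of ELAVL4 and CMTM1, against the distance in bases from the start site (dashed line), in the 4 libraries. From about 80 bases before the ELAVL4 start site, KO primed stands near 100% with 1 exception and WT primed below 30%; at most CMTM1 cytosines both primed libraries stand near 100% and KO naive lies below WT naive.

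Single cytosines of KO naive and WT naive were compared with a two-sided Fisher's exact test on their reads, with Benjamini-Hochberg adjustment over all 907719 cytosines and a difference of at least 25 points. This compares the reads of 2 libraries, not the conditions. Of the 329 members, 5 were called higher in KO naive (1.52%) and 3 lower (0.912%), beside 0.391% and 0.218% in the whole series. At OTX1 the 3 called cytosines lay in the tiles at 63285001 and 63286001. At 63285851, 21 of 35 reads were methylated in KO naive and 5 of 36 in WT naive (60.0% against 13.9%, exact test, adjusted p = 0.0224). At CMTM2, 22 of 27 reads were methylated at 66612851 in KO naive and 2 of 14 in WT naive (81.5% against 14.3%, exact test, adjusted p = 0.0191). At CMTM1, 8 of 32 reads were methylated at 66600072 in KO naive and 23 of 28 in WT naive (25% against 82.1%, exact test, adjusted p = 0.00776). No cytosine of ELAVL4, PCDH17 or MAL was called. Over all 5 loci together, 59 of the 329 members were higher and 24 lower in KO naive at an unadjusted p under 0.05. These unadjusted counts, here and below, also required the minimum difference in points. The matching unadjusted share over the whole series was not counted, so nothing is read from them. Reads varied more between the strands of 1 CpG than sampling gives, by a variance ratio of 2.61 in KO naive and 3.04 in WT naive, and with reads scaled by that ratio 0 members were called in either direction, with 9 higher and 3 lower at an unadjusted p under 0.05.

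**Figure D4:**
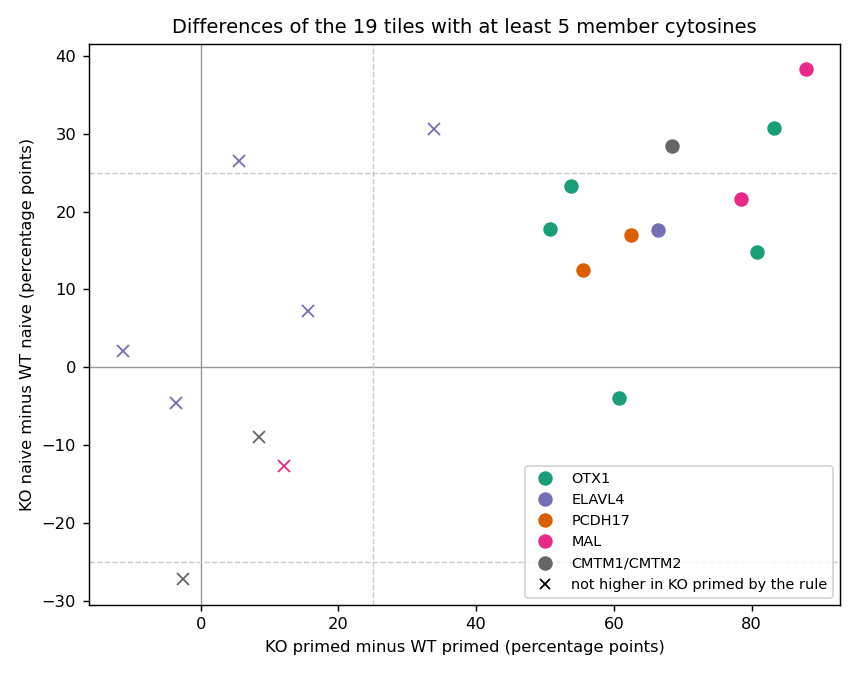
Difference KO naive minus WT naive against the difference KO primed minus WT primed (percentage points) for the 19 tiles with at least 5 members, coloured by locus; circles are the 11 tiles higher in KO primed by the rule, crosses the other 8, and dashed lines mark 25 points. Of the circles, 10 lie above 0 on the vertical axis and the CMTM1 promoter tile is the cross at -27.2 points.

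Naive and primed libraries of 1 genotype were set side by side as a description, since each difference uses a primed library on which the loci were chosen. In the 182 cytosines of the 11 tiles, KO naive had 42.2% and KO primed 86.2%, a difference of -44.0 points, whereas WT naive had 23.3% and WT primed 20.4%, a difference of 2.98 points. Over all cytosines of the series naive minus primed was -22.3 points in KO and -22.5 points in WT. The difference between the states was close in both genotypes over the series. At these tiles the gap between the genotypes follows in part from their choice as high in KO primed and low in WT primed. In KO, 36.2% of all tiles were lower and 0.162% higher in naive than in primed by the rule, and in WT 36.8% were lower and 0.536% higher. Of the 11 tiles, 9 were lower in KO naive than in KO primed and 0 were lower in WT naive than in WT primed.

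The loci did not all differ alike between KO naive and KO primed. OTX1 at 63281001 and 63284001 lay lowest in KO naive, at 13.8% ± 8.55 and 24.8% ± 5.10, beside 88.9% and 100% in KO primed. In the first of these KO naive was also below WT naive (17.8% ± 7.72), with a difference of -3.96 points, the one higher tile with that order. The CMTM2 tile was at the other end, with 82.0% in KO naive and 88.5% in KO primed. There WT naive stood above WT primed, at 53.6% and 20.1%, and this was the only one of the 11 tiles higher in WT naive by the rule. PCDH17 was intermediate, with 37.6% ± 16.3 in KO naive and 89.5% ± 10.02 in KO primed over its 51 cytosines, and 22.0% ± 17.7 in WT naive and 29.2% ± 16.1 in WT primed.

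The cytosines of the 11 tiles also shared a dense CpG context. They had a median of 33.5 listed CpGs within 250 bases, against 9 around the other members and 7 around all cytosines of the series. At least 20 such CpGs surrounded 90.7% of them, 42.9% of the other members and 18.99% of all cytosines. A tile needed at least 5 members to be called, which favours CpG-dense stretches. The other members and all cytosines were not limited to such tiles, so the densities are not a matched comparison. All 182 were read on the minus strand, as were 82.3% to 83.9% of listed cytosines per library. In the 100 kb on each side of the spans, 2 of 20 tiles with at least 5 cytosines were higher in KO primed and 0 were lower. One was chr1:50489001-50490000, 18000 bases before the ELAVL4 span, with 83.7% ± 18.1 in KO primed and 27.6% ± 16.3 in WT primed over 17 cytosines, and with 62.6% ± 14.7 in KO naive and 29.4% ± 15.4 in WT naive. The other was chr2:95671001-95672000, 14000 bases before the MAL span, with 87.9% ± 10.3 in KO primed and 26.7% ± 9.43 in WT primed over 5 cytosines. There KO naive had 64.2% ± 13.1 and WT naive 86.0% ± 14.2.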

How the data were processed

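Groups of the 4 libraries were taken from the labels for genotype, medium and state. For each listed cytosine the authors deposited a methylated read count, a total read count and their fraction, per the file headers. Per the submitters' processing notes, positions are on hg19 (GRCh37). Which aligner and methylation caller made the files, and whether duplicates were removed, is not given in the sources used here. Bisulfite conversion was 99%, per the labels' protocols. The fraction equalled methylated over total reads in each file, and no file listed a cytosine with less than 1 methylated read, which lifts low levels.

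Cytosines with at least 5 reads in all 4 libraries were kept, levels were recomputed from the counts in percent, and means over 1 kb tiles with at least 5 cytosines weight cytosines equally. Members, loci and lists were chosen with earlier results of these data known. KO primed against WT primed had no test, because it chose the loci. KO naive against WT naive was tested per cytosine with a two-sided Fisher's exact test and Benjamini-Hochberg adjustment over all cytosines (adjusted p of 0.05). The test was first run on simulated reads with binomial counting error only. Those reads lacked the extra variance between strands, so the simulation does not give the error rate of the test in these data. Wilson intervals (95%) and SDs over cytosines cover counting error and the spread along the DNA only, not the spread between cultures, and reads without molecular identifiers are not independent molecules. The tiles named are those called between the primed or the naive libraries (above 4 in a locus, the 3 largest and the smallest difference) and the tile with the most cytosines among the rest. Tiles at OTX1 63286001 and CMTM2 66613001 and 66624001, and the single cytosines, were named after their values were seen.

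RefSeq promoter sequences (GRCh38.p14) of all 6 genes, 12 windows, were matched to the files' positions by CpG spacing, requiring at least 7 listed cytosines, all on CpGs, at 1 offset only. This placed 6 windows of 4 genes. No hg19 genome or gene annotation was used here, so exons and introns are not named. Alternatives were the coverage minimum (10 or 20 reads, or only in the 2 libraries compared), read-weighted levels, unlisted cytosines taken as unmethylated where a listed cytosine lay within 25 bases, a ceiling of 100 reads on average, merged strands, 10 cytosines per tile, a 50-point difference, reads scaled by the variance ratio between strands, and 5 reads drawn per cytosine. Python 3.11.15, pandas 2.3.3, numpy 2.4.6, scipy 1.17.1 and numba 0.67.0 were used.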

Additional observations from a re-analysis of the deposited data

Results flagged for a closer look

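At 2 loci the cytosines of the tiles higher in KO primed had naive minus primed differences of opposite sign in the 2 genotypes. The choice of tiles high in KO primed and low in WT primed favours a fall in KO and none in WT. At the other loci WT naive minus WT primed was -0.141 points (OTX1), -1.26 points (ELAVL4) and -7.21 points (PCDH17), so at MAL the sign alone sets it apart little. At MAL, KO naive minus KO primed was -49.3 points and WT naive minus WT primed 5.73 points over 35 cytosines, so the KO value lay below the WT value by -55.0 points (KO minus WT). At CMTM1/CMTM2, KO naive minus KO primed was -6.53 points and WT naive minus WT primed 33.5 points over 22 cytosines, a KO minus WT value of -40.0 points. Neither difference between the genotypes was tested, because each group is 1 library and the KO and WT primed libraries are those on which the loci were chosen.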

How the results depend on the processing

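No paired analysis was possible because each group holds 1 library and the labels carry no replicate numbers; for the same reason no library could be left out. The loci's mean difference between KO primed and WT primed, 37.7 points, was 49.97 with at least 10 reads, 52.5 with 20, 47.4 with read-weighted levels, 42.5 with the minimum in the 2 primed libraries only and 43.3 with unlisted cytosines filled in. The 11 tiles higher in KO primed became 3 of 4 remaining at 20 reads. Tiles higher in KO naive, 5, became 3 at 10 reads, 1 at 20 reads, 1 with at least 10 cytosines per tile and 0 at 50 points. The tile lower in KO naive, 1, became 0 at 10 reads, at 20 reads, with filling in and at 50 points. Naive minus primed in KO was -36.3 points at 20 reads (-44.0 as reported), and in WT 0.290 points with the minimum in 2 libraries and 0.936 with filling in (2.98 as reported). Members called by Fisher's exact test as higher in KO naive, 5, became 9 at 10 reads and 2 at 50 points, and 0 both with scaled reads and with 5 reads drawn (9 and 10 at an unadjusted p under 0.05). Those called lower, 3, became 1 at 10 reads, 1 at 50 points, and 0 at 20 reads, with scaled reads and with 5 reads drawn (0, 3 and 7 unadjusted). At 20 reads 39 members remained; otherwise the cause was not tested. KO naive minus WT naive in the 11 tiles, 18.8 points, stayed between 17.2 and 20.5 points under the 7 alternatives run. No difference in points changed sign, and counts could not reverse. Among values of single loci, 55 stayed within their interval and 13 moved without changing sign. They were read in tiles already called higher in KO primed, which favours that sign between the primed libraries. At 20 reads KO naive minus WT naive went from 17.7 to 2.55 points at ELAVL4 and from 25.9 to 19.3 at MAL. It went from 14.1 to 24.9 points at OTX1 and from 15.6 to 22.3 at PCDH17. At ELAVL4 the cytosines left at 20 reads were those from 50513426 to 50513646, so 17.7 and 2.55 points cover different stretches of the tile.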

Other observations

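Outside the loci, the 3 tiles with at least 10 cytosines whose levels in the 4 libraries lay closest to the mean profile of the 11 tiles (42.2% in KO naive, 22.4% in WT naive, 87.3% in KO primed and 19.3% in WT primed) were picked from 16799 candidates by root mean square distance over the 4 libraries. They were chr6:45631001-45632000 at 7.81 points, chr20:25129001-25130000 at 8.88 points and chr20:30135001-30136000 at 9.28 points (hg19). The chr6 tile had 28.2% in KO naive, 29.2% in WT naive, 88.3% in KO primed and 19.3% in WT primed over 14 cytosines. The first chr20 tile had 44.2% in KO naive, 27.8% in WT naive, 93.6% in KO primed and 34.8% in WT primed over 14 cytosines. The second had 34.1% in KO naive, 30.4% in WT naive, 75.4% in KO primed and 10.7% in WT primed over 19 cytosines.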
